A study of Mus musculus with 6 samples.

Results

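The genes described here are type X collagen and 7 regulators of chondrocyte hypertrophy, Col10a1, Mef2a, Mef2c, Mef2d, Runx1, Runx3, Hdac4 and Hdac5, chosen by name for their role and found by symbol among the 43472 gene symbols counted in each library. The choice was made with earlier results of these data known. RNA-seq was performed on whole intervertebral discs (IVDs) at postnatal day 20 (P20), with 3 libraries of Col2Cre;Adgrg6 f/f mutants and 3 of controls, each a pool of discs from 2 to 3 mice of the strain given as C57B6/J and numbered 1 to 3 within its group. The mutants carry floxed Adgrg6, an adhesion G-protein coupled receptor, and a Cre driven by type II collagen sequences, which the study found active throughout the IVD and also in periosteum. The controls are named wild type by genotype and Col2Cre controls by title, while the study describes them as Cre (-) littermates, so that it is not settled whether they carry Cre. Between 9061491 and 12017008 reads of a library were counted on genes. Adgrg6, listed by its older symbol Gpr126, was at 109 ± 14.7 CPM (a gene's counts relative to the scaled total of its library) in control and 122 ± 16.1 CPM in mutant IVDs (SD, n = 3 each, adjusted p = 0.849 from edgeR), counted over the whole gene and not over the deleted part alone.

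In growth plates and cartilaginous endplates, chondrocytes stop dividing, swell and begin to make type X collagen, a short-chain collagen used as the marker of the hypertrophic state. Mef2c and Mef2d, transcription factors of the MADS box family, and the Runx factors, which share the runt DNA-binding domain, promote this step. Hdac4 and Hdac5 are class IIa histone deacetylases. They bind Mef2 factors in the nucleus and silence their targets until phosphorylation moves them to the cytoplasm. Parathyroid hormone-related protein keeps Hdac4 in the nucleus and so delays hypertrophy, while Ihh, made by prehypertrophic chondrocytes, sustains its supply. In a whole disc, fewer cells of a type and less RNA per cell cannot be told apart.

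The stretches of 250 bases before the annotated starts of 3 of the genes are shown because they hold matches to the letters that Runx factors and Mef2 factors bind, or, for Col10a1, to a TATA box. They are taken from RefSeq on GRCm38.p6, which had entries for all 8 genes, and are printed 5′ to 3′ on the strand of the gene, with the matches in capitals. The letters searched on both strands were TGTGGT for Runx, CTA and TAG with 4 bases between them for Mef2, TATAAA for a TATA box and TGANTCA for AP-1, and no 2 matches shown overlap.
Col10a1, chr10:34389731-34389980, plus strand: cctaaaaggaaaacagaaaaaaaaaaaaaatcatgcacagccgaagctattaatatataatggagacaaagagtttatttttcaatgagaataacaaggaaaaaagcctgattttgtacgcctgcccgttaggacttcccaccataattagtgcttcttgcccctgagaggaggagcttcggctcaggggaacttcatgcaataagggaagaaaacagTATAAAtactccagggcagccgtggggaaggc
Runx3, chr4:135120395-135120644, plus strand: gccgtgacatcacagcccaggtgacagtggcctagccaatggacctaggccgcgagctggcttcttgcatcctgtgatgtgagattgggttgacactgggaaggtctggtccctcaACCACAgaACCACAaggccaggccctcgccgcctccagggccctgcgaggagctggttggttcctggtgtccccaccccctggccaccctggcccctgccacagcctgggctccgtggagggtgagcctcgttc
Hdac5, chr11:102230173-102230422, minus strand: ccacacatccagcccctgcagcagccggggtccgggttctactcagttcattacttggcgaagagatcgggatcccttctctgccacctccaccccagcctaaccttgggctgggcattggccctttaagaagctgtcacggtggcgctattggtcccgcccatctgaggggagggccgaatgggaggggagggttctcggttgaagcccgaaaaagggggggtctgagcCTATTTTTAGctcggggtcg
The window of Col10a1 holds TATAAA from 32 to 27 bases before the start and none of the letters searched for Runx, Mef2 or AP-1. The window of Runx3 shown holds the Runx letters on the opposite strand from 134 to 129 and again from 126 to 121 bases before the start, and the window of its other annotated start, chr4:135152295-135152544, holds none of the 4 motifs. The Mef2 match of Hdac5 lies 20 to 11 bases before its start. The windows of Mef2c hold TATAAA on the opposite strand or the AP-1 letters, and those of Mef2a, Mef2d, Runx1 and Hdac4 hold none of the 4 motifs. Of 32851 windows of this length, 14% hold the Runx letters, 3.2% the Mef2 letters, 12.4% TATAAA and 6.75% the AP-1 letters. A match describes the letters only, and no binding was measured in these discs.

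Across the 8 genes, 4 had a lower and 4 a higher fitted value in mutant IVDs, with log2 fold changes (mutant over control) from -0.91 for Col10a1 to 0.40 for Runx1. The genes at the lower end were Col10a1, Runx3 and Mef2c, while Mef2a, Mef2d, Runx1 and Hdac5 lay above 0 and Hdac4 at 0, on either side of it depending on the scaling. All 8 were among the 16152 genes that passed the filter on low counts and entered the edgeR test. Its p-values weigh the difference between the groups against the spread between pools of mice. Mef2c and Runx3 had an unadjusted p under 0.05, both lower in mutant IVDs, compared with 7.21% of all genes tested in either direction, 4.32% lower and 2.89% higher. Without control pool 1, Runx3 was the 1 of the 8 genes lower at this threshold and Mef2d the 1 higher, in a fit where 2427 of 17164 genes passed it, 901 of them higher. Without mutant pool 2 only Mef2c passed, lower, where 1669 of 17095 genes did. Without mutant pool 3 only Runx1 passed, higher, where 874 of 17142 genes did. After Benjamini-Hochberg adjustment over all genes, 0 of the 8 genes passed 0.05 with edgeR (adjusted p from 0.676 to 0.998), where 0.00619% of all genes passed. With DESeq2 0 of the 8 passed, where 58 of 16152 genes did. With limma-voom with sample quality weights 0 of the 8 passed, where 0 of all genes did. The median log2 fold change was 0.10 over the 8 genes and -0.01 over all genes tested.

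**Figure D1:**
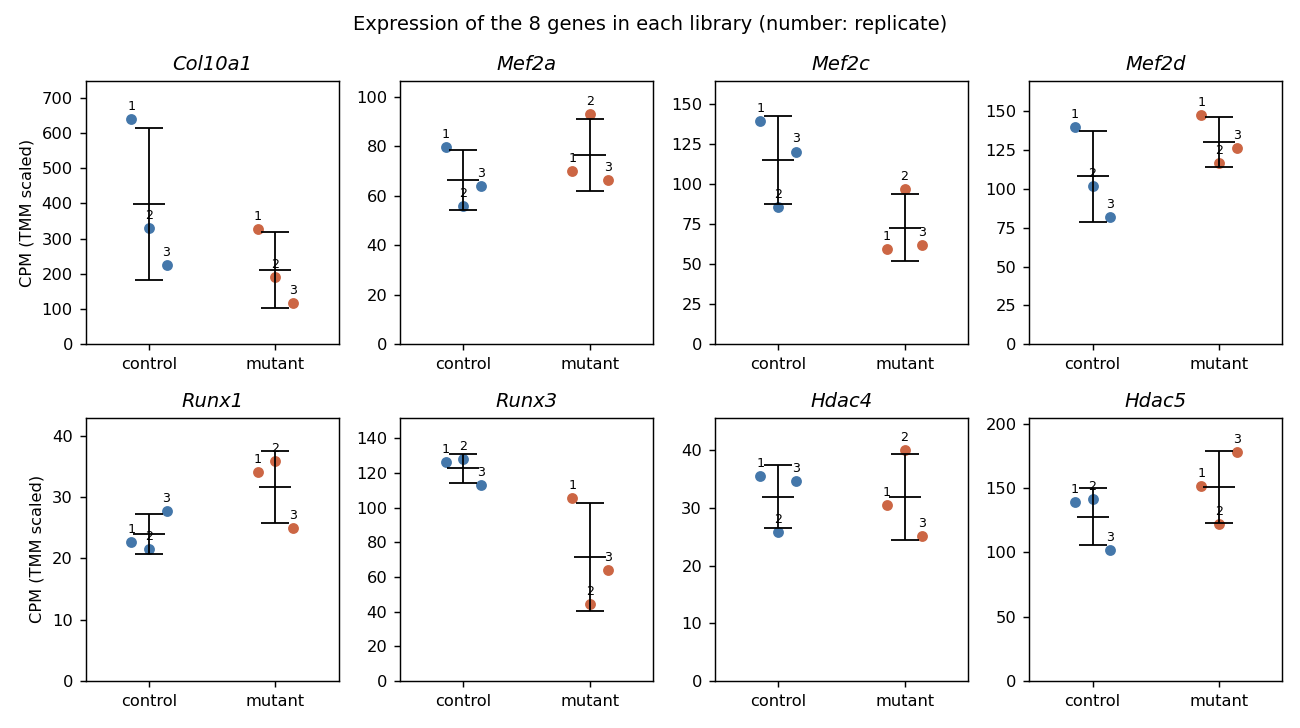
CPM of each of the 8 genes (y axis, scaled by TMM, from 0) in the 3 control and 3 mutant libraries, with the replicate number at each point and bars for the mean ± SD. The libraries of the groups are apart only for Runx3, whose highest mutant value, 106 CPM, lies below its lowest control value, 113 CPM.

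Col10a1 encodes type X collagen and lies on chromosome 10 from 34389981 to 34397085 (GRCm38, as are all positions given). Its level was 640 CPM in control pool 1, 330 in control pool 2 and 226 in control pool 3, compared with 328, 190 and 116 in the like-numbered mutant pools. Thus mutant pools 2 and 3 were below every control library, and mutant pool 1 lay within the control range. The log2 fold change was -0.91 (standard error, SE, 0.43, 95% interval -1.86 to 0.03, with edgeR unadjusted p = 0.0573, adjusted p = 0.691). The unadjusted p was 0.00183 in edgeR with genes of low counts kept and 0.0288 in limma-voom with sample quality weights, with adjusted p of 0.119 and 0.526. With the replicate number as a block in edgeR it was 0.00149 (adjusted p = 0.48), though the replicate numbers did not pair the libraries. It was 0.136 with DESeq2 and 0.0563 in edgeR with RLE scaling. Much of the log2 fold change came from control pool 1, without which it was -0.37 (edgeR unadjusted p = 0.328), while it was -1.19 without control pool 3 (edgeR unadjusted p = 0.0198) and -1.35 without mutant pool 1 (edgeR unadjusted p = 0.0130). Skeletal muscle genes were also highest in control pool 1, with a summed level of 4244 CPM compared with 75.5 to 173 CPM in the other libraries, and their part in the result was not tested.

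All of Col10a1 lies inside Nt5dc1, a nucleotidase family gene on the opposite strand that runs from 34288288 to 34418552. The exons of the 2 genes share only 18 bases. Yet the counts of Nt5dc1 followed those of Col10a1 library by library, at 6337 and 5982 in control pool 1, 3321 and 2968 in control pool 2, 3387 and 2888 in control pool 3, 2974 and 2883 in mutant pool 1, 2681 and 2330 in mutant pool 2 and 1228 and 1090 in mutant pool 3. In every library Nt5dc1 had 1.03 to 1.17 times the counts of Col10a1. Which of the 2 genes the reads came from was not tested. Nt5dc1 had a log2 fold change of -0.93 (SE 0.39, edgeR unadjusted p = 0.0395, adjusted p = 0.684). Both genes summed into 1 count, an alternative chosen after seeing the data, gave -0.92, which is no separate check, since the counts are nearly equal.

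**Figure D2:**
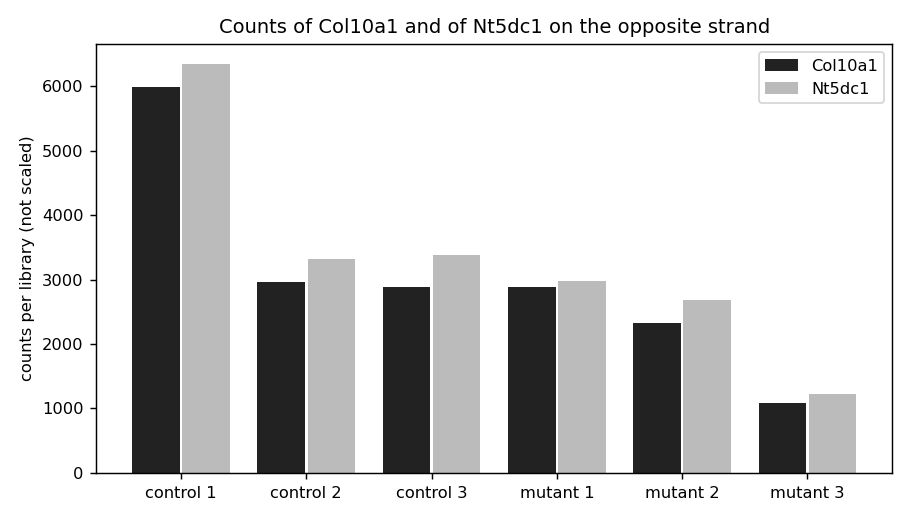
Counts of Col10a1 (black bars) and Nt5dc1 (grey bars) in each library, not scaled for depth. In each of the 6 libraries the pair of bars is nearly equal, at 5982 and 6337 in control pool 1 and 1090 and 1228 in mutant pool 3.

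The share of Col10a1 was next compared with that of Col2a1, the main collagen of cartilage, within each library, which needs no scaling between libraries. The log2 ratio of Col10a1 to Col2a1 counts was -7.41, -8.41 and -8.12 in control pools 1, 2 and 3, compared with -8.56, -9.02 and -10.01 in the like-numbered mutant pools, so that the groups were apart. The mean was -9.20 ± 0.74 in mutant and -7.98 ± 0.51 in control IVDs (SD, n = 3 each), which differ by -1.22 (exact permutation test, two-sided, p = 0.1, the smallest p that 3 libraries against 3 allow). Against Acan, which encodes the core protein of aggrecan, the difference was -0.60 and the groups overlapped (p = 0.5 from the same exact test). Against all gene counts it was -1.02, and against Ihh it was 0.55, with overlapping groups in both cases (p = 0.2 from the same exact test for all gene counts, no test for Ihh). Col2a1 itself had a log2 fold change of 0.27 (SE 0.46, edgeR unadjusted p = 0.572) and Acan one of -0.29 (SE 0.27, edgeR unadjusted p = 0.299), which lie on opposite sides of 0. Of the 7 cartilage genes listed, these 2 among them, 5 had a lower and 2 a higher fitted value in mutant IVDs.

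Of the 3 Mef2 factors, Mef2c is required for hypertrophy in growth plates and also acts in muscle, blood vessels and lymphocytes. It lies on chromosome 13 from 83504034 to 83667080. Mef2c was at 139, 85.3 and 120 CPM in control pools 1, 2 and 3, compared with 59.4, 96.9 and 61.8 in the like-numbered mutant pools. Hence mutant pools 1 and 3 were below every control library and mutant pool 2 was above control pool 2. The log2 fold change was -0.66 (SE 0.25, edgeR unadjusted p = 0.0239, adjusted p = 0.676). The unadjusted p from edgeR missed 0.05 on leaving out any 1 of 4 libraries, at a log2 fold change of -0.48 without control pool 1 (unadjusted p = 0.0881), -0.61 without control pool 3 (unadjusted p = 0.0670), -0.50 without mutant pool 1 (unadjusted p = 0.111) and -0.54 without mutant pool 3 (unadjusted p = 0.101). Control pool 1, the library with most skeletal muscle counts, was again the highest. Control pool 3, with the lowest summed level of skeletal muscle genes (75.5 CPM), was next highest for Mef2c. The part of muscle in the Mef2c result was not tested.

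Mef2a, on chromosome 7 from 67231163 to 67372858, and Mef2d, on chromosome 3 from 88142372 to 88172086, encode widely expressed factors of the same family. For Mef2a, expression was 79.7, 55.7 and 64.0 CPM in control pools 1, 2 and 3, compared with 70.0, 93.0 and 66.5 in the like-numbered mutant pools. The groups overlapped, with a log2 fold change of 0.20 (95% interval -0.24 to 0.65, edgeR unadjusted p = 0.333). For Mef2d, expression was 140, 102 and 82.2 CPM in the controls and 148, 116 and 127 CPM in the mutants, in the same order of pools. Here too the groups overlapped, at a log2 fold change of 0.27 (95% interval -0.22 to 0.76, edgeR unadjusted p = 0.245), and without control pool 1 the value was 0.52 (edgeR unadjusted p = 0.0289). Mef2a shares 302 exonic bases with Lysmd4 on the opposite strand and Mef2d shares 531 with 1700113A16Rik, and these neighbours had 495 and 843 counts over all libraries compared with 4447 for Mef2a and 7193 for Mef2d. Mef2b, the remaining member of the family, was listed at 0 in every library.

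Mef2c was the more counted of the pair Mef2c and Mef2a in every control pool, but in 1 mutant pool only. The log2 ratio of Mef2c to Mef2a counts was 0.80, 0.61 and 0.91 in control pools 1, 2 and 3, compared with -0.24, 0.06 and -0.11 in the like-numbered mutant pools. Its mean was 0.77 ± 0.15 in control and -0.09 ± 0.15 in mutant IVDs, and the groups were apart. The ratio was chosen after the values of both genes were seen and is given as a description, with no test.

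Runx3, which acts with other Runx factors in chondrocyte maturation and is also known from T lymphocytes and sensory neurons, lies on chromosome 4 from 135120652 to 135177990. Runx3 was at 127, 128 and 113 CPM in control pools 1, 2 and 3, compared with 106, 44.6 and 63.7 in the like-numbered mutant pools. All mutant libraries were below all controls, as was the case for 5.96% of the genes tested (5.45% were apart in the other direction and 11.4% in either), and the mutant libraries spread more widely. The log2 fold change was -0.78 (SE 0.28, edgeR unadjusted p = 0.0180, adjusted p = 0.676), or 1.72-fold lower in mutant IVDs. It was strongest without mutant pool 1, at -1.14 (edgeR unadjusted p = 0.000652), and the call was lost without mutant pool 2 (-0.52, edgeR unadjusted p = 0.0611) and without mutant pool 3 (-0.71, edgeR unadjusted p = 0.0637). The T lymphocyte markers Cd3d, Cd3e, Cd3g and Cd2 were too low to be tested, and Lck, the 1 marker of 5 that passed the filter, was at 8.24 to 18.5 CPM in control and 9.79 to 14.6 CPM in mutant libraries. Whether T lymphocytes or sensory neurons have a part in the Runx3 counts was not tested.

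Runx1, best known from blood stem cells and also present in immature chondrocytes, lies on chromosome 16 from 92601466 to 92826149. Runx1 was at 22.7, 21.5 and 27.8 CPM in control pools 1, 2 and 3, compared with 34.1, 35.8 and 25.0 in the like-numbered mutant pools. Mutant pools 1 and 2 were above every control library and mutant pool 3 was within the control range. The log2 fold change was 0.40 (SE 0.20, 95% interval -0.04 to 0.84, edgeR unadjusted p = 0.0703), and the unadjusted p passed 0.05 without control pool 3 (0.53, edgeR unadjusted p = 0.0429) or without mutant pool 3 (0.55, edgeR unadjusted p = 0.0248). Of 9 neutrophil markers, whose fitted values were all higher in mutant IVDs, 2 had an unadjusted p under 0.05, compared with 2.89% of all genes tested called higher. With 1 library left out the count was 1 to 5, where 618 to 2427 of all genes passed in either direction. The summed level of these markers was 16.2 to 60.7 CPM in control and 34.0 to 157 CPM in mutant libraries. Whether blood cells have a part in the Runx1 counts was not tested.

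As with the Mef2 factors, the proportion of the 2 Runx genes was lower in every mutant pool than in any control. The log2 ratio of Runx3 to Runx1 counts was 2.48, 2.58 and 2.02 in control pools 1, 2 and 3, compared with 1.63, 0.32 and 1.35 in the like-numbered mutant pools, with no overlap between the groups. This ratio was likewise chosen after seeing the values and was not tested. Cbfb, the shared partner of Runx factors, had a log2 fold change of -0.03 (SE 0.19, edgeR unadjusted p = 0.889).

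**Figure D3:**
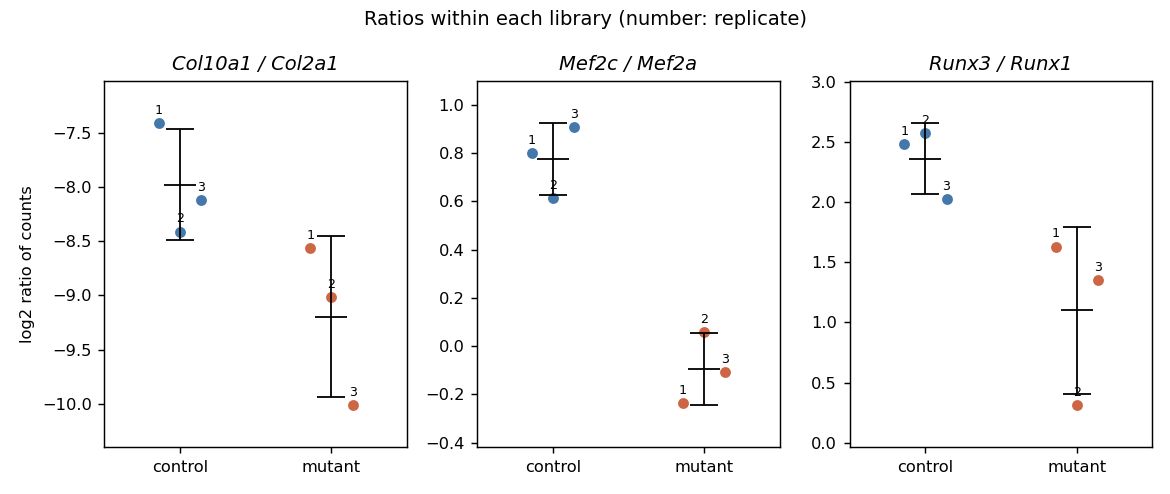
Log2 ratios of counts (y axis) of Col10a1 to Col2a1, Mef2c to Mef2a and Runx3 to Runx1 in each library, with bars for the mean ± SD of 3 libraries. In each of these 3 ratios, chosen from 6 computed, all mutant libraries lie below all control libraries, and the Mef2c to Mef2a means are 0.77 in control and -0.09 in mutant IVDs.

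Neither of the class IIa deacetylases had an unadjusted p under 0.05. Hdac4, the main repressor of hypertrophy among them, lies on chromosome 1 from 91928779 to 92195699. Hdac4 was at 35.5, 25.8 and 34.6 CPM in control pools 1, 2 and 3, compared with 30.5, 40.0 and 25.2 in the like-numbered mutant pools. The highest and the lowest library were both mutant, and the log2 fold change was -0.0027 (95% interval -0.48 to 0.47, edgeR unadjusted p = 0.990). Hdac5, on chromosome 11 from 102194432 to 102230166, was at 139, 142 and 102 CPM in the controls and 152, 122 and 178 CPM in the mutants, in the same order. Mutant pools 1 and 3 were above every control, at a log2 fold change of 0.24 (95% interval -0.23 to 0.71, edgeR unadjusted p = 0.277). Among the other class IIa genes, Hdac7 had a log2 fold change of 0.53 (SE 0.26, edgeR unadjusted p = 0.0652) and Hdac9 one of -0.41 (SE 0.34, edgeR unadjusted p = 0.258). Counts of messenger RNA do not measure where these proteins lie in the cell.

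Levels of the 8 genes were compared as CPM per kilobase of exon in the annotation. In control IVDs, Col10a1 was highest at 127 ± 68.9 (SD, n = 3), followed by Runx3 at 24.5 ± 1.69, Mef2d at 18.04 ± 4.90, Hdac5 at 14.5 ± 2.53, Mef2c at 7.30 ± 1.73, Mef2a at 4.53 ± 0.83, Hdac4 at 2.02 ± 0.34 and Runx1 at 2.00 ± 0.27. The control libraries of neighbours in this order overlapped for Runx3 and Mef2d, Mef2d and Hdac5, Mef2c and Mef2a, and Hdac4 and Runx1. They were apart for Col10a1 and Runx3, Hdac5 and Mef2c, and Mef2a and Hdac4. In mutant IVDs Runx3, at 14.3 ± 6.25, stood below Mef2d at 21.8 ± 2.68 and Hdac5 at 17.2 ± 3.21. Mef2a, at 5.21 ± 0.98, stood above Mef2c at 4.63 ± 1.34, and Runx1, at 2.63 ± 0.49, above Hdac4 at 2.02 ± 0.47. The mutant libraries overlapped in each of these pairs. Per kilobase of the whole gene, introns included, Mef2d and Hdac5 stood above Runx3 in control IVDs as well. The order of the other genes in control IVDs was the same as per kilobase of exon.

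The neighbours of these genes in the hypertrophy program were described from lists, which were chosen with earlier results of these data known. The study had itself reported lower Panx3 in these mutants. The counts of list genes called are therefore a description and no independent support. Of 9 genes of prehypertrophic and hypertrophic chondrocytes, 8 were tested and 3 had an unadjusted p under 0.05, all lower in mutant IVDs, compared with 4.32% of all genes tested called lower. Ihh, the hedgehog ligand of prehypertrophic cells, was at 188, 189 and 112 CPM in control pools 1, 2 and 3, compared with 63.3, 47.7 and 63.6 in the like-numbered mutant pools (log2 fold change -1.49, SE 0.24, edgeR unadjusted p = 8.9e-05, adjusted p = 0.287). Panx3, a channel protein of hypertrophic chondrocytes and osteoblasts, had a log2 fold change of -1.25 (SE 0.24, edgeR unadjusted p = 0.000331), and Pth1r, the receptor of parathyroid hormone-related protein, one of -0.71 (SE 0.24, edgeR unadjusted p = 0.0147). For each of these 3 genes all mutant libraries were below all controls, as for 5.96% of all genes tested. The late genes Alpl, Ibsp and Spp1, which osteoblasts also express, had log2 fold changes of -0.25 (edgeR unadjusted p = 0.275), 0.44 (edgeR unadjusted p = 0.129) and 0.28 (edgeR unadjusted p = 0.189). For Spp1 the mutant libraries were all above the controls, as for 5.45% of all genes tested. Mmp13, a collagenase of late hypertrophic cells named here after its values were seen, had one of -0.36 (edgeR unadjusted p = 0.322). With adjusted p from edgeR 0 of these 8 genes passed 0.05, where 1 of all 16152 genes tested did. In edgeR with genes of low counts kept 2 of the 8 passed, where 245 of 26418 genes did. With DESeq2 2 passed as well, where 58 of 16152 genes did. The list had a median log2 fold change of -0.31, compared with -0.01 over all genes tested. Without control pool 1 the median was -0.10, with 2 genes at an unadjusted p under 0.05, both lower. In that fit 2427 of 17164 genes passed, 901 of them higher. Without mutant pool 3 the median was -0.11. Of 7 cartilage genes, 5 had a lower and 2 a higher fitted value, with a median of -0.29. Matn3 alone of these 7 had an unadjusted p under 0.05 from edgeR, and it was lower. With 1 library left out, the cartilage median lay between -0.39 and -0.14. In those fits 0 or 1 of the 7 passed, where 618 to 2427 of all genes did.

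Of 9 other factors that promote hypertrophy 8 were tested, all with log2 fold changes at or below 0. Foxa3, a forkhead factor, and Dlx5, a homeobox factor, had an unadjusted p under 0.05. With all libraries, 7.21% of all genes tested passed this threshold and 4.32% were lower. The count of 2 was 1 without control pool 2 (where 929 of 16610 genes passed) and 3 without mutant pool 1 (817 of 17179). Foxa3 was at 30.7 ± 1.88 CPM in control and 19.7 ± 2.37 CPM in mutant IVDs (log2 fold change -0.64, SE 0.17, edgeR unadjusted p = 0.00423), and Dlx5 at 26.2 ± 6.24 and 16.5 ± 2.11 CPM (log2 fold change -0.67, SE 0.22, edgeR unadjusted p = 0.0115). Sp7, a zinc finger factor of osteoblasts and hypertrophic chondrocytes, had a log2 fold change of -0.41 (edgeR unadjusted p = 0.162). The median of the list was -0.32, and it was -0.52 without control pool 3, -0.65 without mutant pool 1 and -0.18 without mutant pool 2. Of 10 inhibitors of hypertrophy, among them Sox9, Sox5, Sox6 and Fgfr3, 0 had an unadjusted p under 0.05 and 0 passed after adjustment with edgeR. The median of this list was 0.08, and it was -0.04 without control pool 3, 0.01 without mutant pool 1 and 0.14 without mutant pool 2. DESeq2 and limma-voom also gave 0 genes of this list at an unadjusted p under 0.05. Leaving out 1 library gave 0 to 2, where 618 to 2427 of all genes passed.

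**Figure D4:**
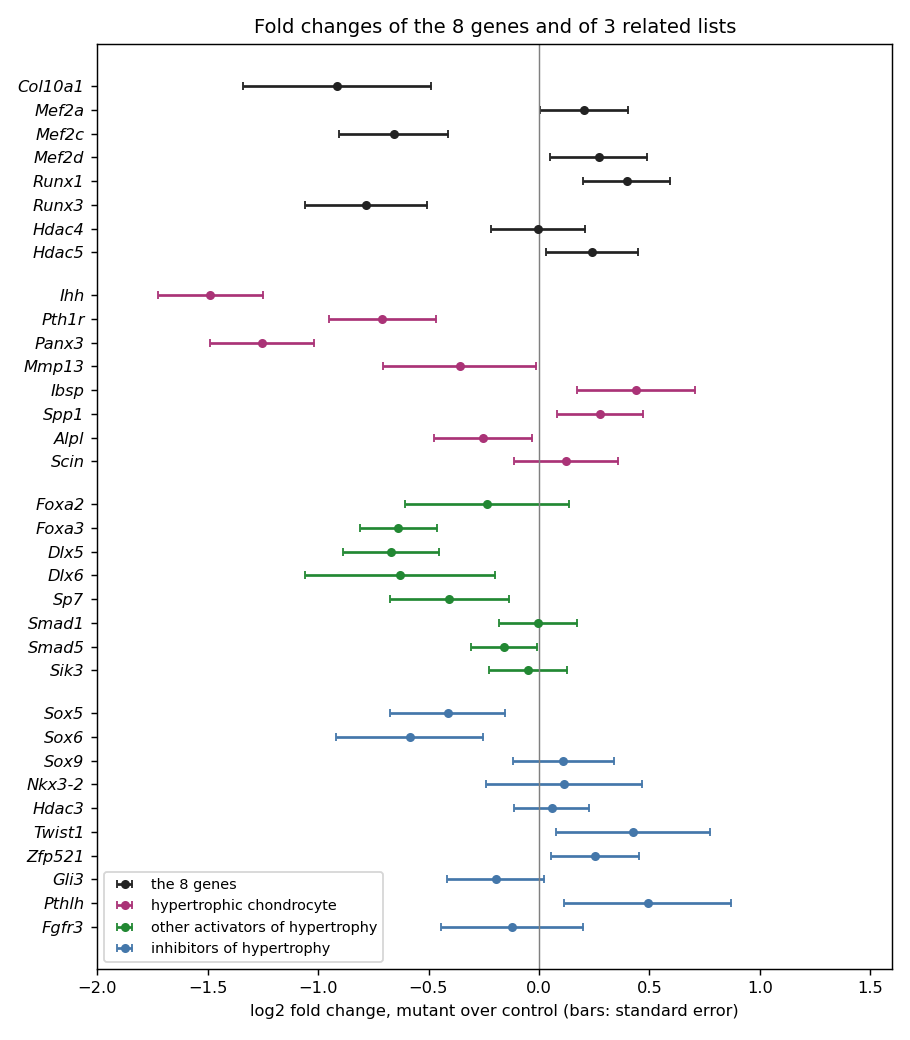
Log2 fold change of mutant over control (x axis, bars for the standard error from edgeR) of the 8 genes and of genes in 3 related lists. Ihh at -1.49 and Panx3 at -1.25 lie farthest to the left, followed by Col10a1 at -0.91, and the inhibitors lie on both sides of 0.

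The genes that control where class IIa deacetylases reside were examined last. Of 25 kinases, phosphatase subunits, carriers and corepressors, all tested, 2 had an unadjusted p under 0.05, compared with 7.21% of all genes tested. This count was 5 without control pool 1 (where 2427 of 17164 genes passed) or with limma-voom (1476 of 16152) and 6 without mutant pool 2 (1669 of 17095). It was 1 without control pool 2 (929 of 16610) or control pool 3 (618 of 16388). Prkg2, the cyclic GMP-dependent kinase of growth plate chondrocytes, was at 79.4, 65.3 and 69.1 CPM in control pools 1, 2 and 3, compared with 22.5, 32.1 and 31.2 in the like-numbered mutant pools. Its log2 fold change was -1.31 (SE 0.19, edgeR unadjusted p = 3.2e-05, adjusted p = 0.172). With DESeq2, and in edgeR with genes of low counts kept, 1 gene of the list passed an adjusted 0.05. Of all genes, 58 of 16152 passed in the DESeq2 fit and 245 of 26418 in the other. Camk2b, a calcium-dependent kinase, had a log2 fold change of 0.89 (SE 0.39, edgeR unadjusted p = 0.0441) with overlapping groups. Sik3, the kinase known to release Hdac4 from the nucleus in chondrocytes, was at 98.1 ± 16.5 CPM in control and 94.8 ± 2.32 CPM in mutant IVDs (log2 fold change -0.05, edgeR unadjusted p = 0.784). The 6 Ywha genes tested, which encode carriers that hold phosphorylated deacetylases in the cytoplasm, had log2 fold changes from 0.07 to 0.38 and unadjusted p from 0.0576 to 0.701 from edgeR.

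The genes whose log2 CPM followed that of Col10a1 most closely over the 6 libraries, among 9964 genes with a mean of at least 10 CPM, were Nt5dc1 (Pearson's r = 0.998), Serinc5 (0.983), Col27a1 (0.975), Tspan13 (0.974) and Matn3 (0.970). These correlations describe 6 libraries that also differ in their content of other tissues, such as muscle in control pool 1. Matn3, a matrilin of cartilage matrix, was at 689, 475 and 412 CPM in control pools 1, 2 and 3, compared with 408, 286 and 222 in the like-numbered mutant pools, with the same order of pools within each genotype as Col10a1. Its log2 fold change was -0.78 (SE 0.28, edgeR unadjusted p = 0.0178). Among the 7 regulators, the correlation with Col10a1 was 0.71 for Runx3, 0.52 for Mef2c and -0.30 for Runx1. It was 0.27 for Hdac4, 0.27 for Mef2d, 0.05 for Mef2a and -0.16 for Hdac5.

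**Figure D5:**
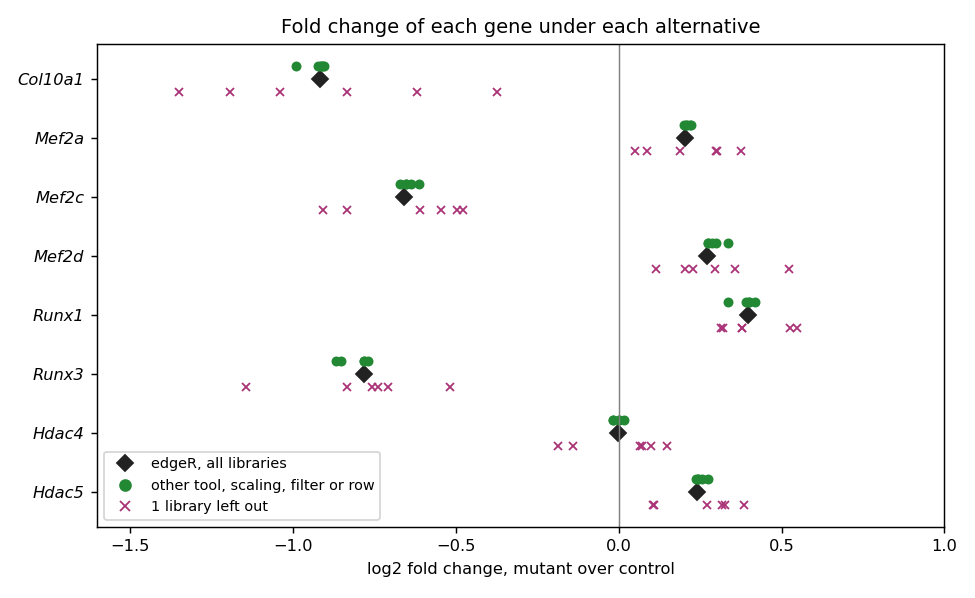
Log2 fold change of each of the 8 genes (x axis) with edgeR on all libraries (diamonds), with another tool, scaling, filter or row (circles) and with 1 library left out (crosses). Col10a1 spans -1.35 to -0.37 and Hdac4 lies on both sides of 0, while Col10a1, Mef2c and Runx3 stay below 0 throughout.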

How the data were processed

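Whole IVDs of P20 mice were measured by poly(A) RNA-seq in 3 mutant and 3 control pools. The authors deposited raw counts per gene symbol, 1 file per library. The study's methods name Cutadapt, FastQC and HISAT2 on GRCm38.88, while the submitters' processing notes name STAR 2.5.3a, HTSeq and DESeq2 on mm10. The strand setting and the features counted are not given in the sources used here. A deposited table of the authors' scaled values, fold changes and p-values was not used.

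Reads outside genes (39.4% to 43.3% of the reads of a library), ambiguous reads (0.846% to 1.05%) and unaligned reads (12.0% to 18.9%) were left out. The test was the quasi-likelihood test of edgeR 4.0.16 (R 4.3.3) with TMM scaling, filterByExpr at a count minimum of 10 and Benjamini-Hochberg adjustment over all genes, after the code was tested on simulated data. The standard error is the size of the log2 fold change divided by the square root of F. Every 2 libraries of a group differed by more than counting error. The 95% intervals are for the log2 fold change and rest on the spread between libraries. Positions are those of GENCODE M21 on GRCm38, and the gene symbols were matched by name.

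The 8 genes and all lists were chosen with earlier results of these data known. Named in the text are these genes, genes that overlap them, list genes with an unadjusted p under 0.05 or among the 4 of highest CPM in their list, and the 5 genes most like Col10a1. Also named are Gpr126, Mmp13, which was named after its values were seen, and some list genes too low to be tested or at 0. Some genes are not reported here. Alternatives were RLE scaling, no filter, a block for replicate number, DESeq2 1.42.0 without a prior, limma-voom with sample quality weights (limma 3.58.1) and leaving out each library.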

Additional observations from a re-analysis of the deposited data

How the results depend on the processing

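Col10a1, Mef2a, Mef2c, Mef2d, Runx1, Runx3 and Hdac5 kept their direction under all alternatives, and adjusted p stayed above 0.05 for the 8 genes in each. Over the fits that left out 1 library, the log2 fold change ran from -1.35 to -0.37 for Col10a1, from 0.05 to 0.37 for Mef2a, from -0.91 to -0.48 for Mef2c, from 0.12 to 0.52 for Mef2d, from 0.31 to 0.55 for Runx1, from -1.14 to -0.52 for Runx3, from -0.19 to 0.15 for Hdac4 and from 0.11 to 0.39 for Hdac5. Col10a1 passed an unadjusted 0.05 without the filter on low counts (-0.90, edgeR unadjusted p = 0.00183, adjusted p = 0.119), with limma-voom and sample quality weights (-0.99, limma unadjusted p = 0.0288, adjusted p = 0.526) and with the replicate number as a block (-0.91, edgeR unadjusted p = 0.00149, adjusted p = 0.48), and the cause was not tested. With DESeq2 its unadjusted p was 0.136. Hdac4 changed sign at 0.0020 with RLE, 0.018 without the filter and 0.0020 with DESeq2.

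The replicate numbers did not pair the libraries, since deviations from the group means of same-numbered libraries correlated at 0.16, -0.13 and 0.10. With the block, 1002 genes had an unadjusted and 0 an adjusted p under 0.05. The number of genes with an unadjusted p under 0.05 was 1164, 2276 without the filter and 618 to 2427 with 1 library left out. After adjustment it was 1, compared with 245 without the filter, 58 with DESeq2, 0 with limma-voom and 0 to 31 with 1 library left out (31 without control pool 1). The Col10a1 to Col2a1 difference lay between -1.53 and -0.81 with 1 library left out. With 3 pools per genotype, the 95% interval of Hdac4 spans -0.48 to 0.47.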

Other observations

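Genes of other cell types in the discs also differed between the pools. Their counts at an unadjusted p under 0.05 stand beside 7.21% of all genes tested with edgeR, 4.32% lower and 2.89% higher, and beside 2427 of 17164 genes in the fit without control pool 1, and 618 to 1669 genes in the fits without another library. Of 6 osteoblast and osteocyte genes, Bglap, which encodes osteocalcin, was at 5.83 ± 0.624 CPM in control and 18.1 ± 7.26 CPM in mutant IVDs (log2 fold change 1.64, SE 0.32, edgeR unadjusted p = 0.000415, adjusted p = 0.476), Bglap2 had a log2 fold change of 1.31 (edgeR unadjusted p = 0.00473) and Phex one of -0.81 (edgeR unadjusted p = 0.0341). At this threshold 3 of the 6 were higher without control pool 1. Without control pool 3 or any 1 mutant pool 0 were lower and 2 higher. Of 4 markers of the annulus fibrosus, Tnmd, which encodes tenomodulin, had a log2 fold change of 0.96 (edgeR unadjusted p = 0.00376), and 2 of the 4 passed without control pool 2 or mutant pool 2, while 0 of 5 nucleus pulposus and 0 of 5 endothelial markers had an unadjusted p under 0.05, and 0 of both after adjustment with edgeR. Without control pool 1, 3 of the 5 endothelial markers were higher at an unadjusted p under 0.05, and without control pool 3 or mutant pool 2, 1 of the 5 nucleus pulposus markers was.

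Of 9 skeletal muscle genes 8 had an unadjusted p under 0.05, all lower in mutant IVDs, with 4244 CPM summed over the list in control pool 1 and 75.5 to 173 CPM in the other 5 libraries. Without control pool 1, 4 of the 9 were higher and 0 lower at that threshold, and the median log2 fold change went from -3.15 to 0.81. Of 8 neuron and glia genes tested 3 were higher at an unadjusted p under 0.05, Nefl, Nefm and Gfap (2 to 5 with 1 library left out), with summed levels of 217 to 1655 CPM in control and 908 to 3580 CPM in mutant libraries. Of 5 red blood cell markers, Slc4a1, an anion exchanger of the red cell membrane, was higher (log2 fold change 2.68, edgeR unadjusted p = 0.00114), and 4 were higher at an unadjusted p under 0.05 without control pool 1 and 2 without mutant pool 3. Of 7 macrophage markers tested, Cd68 was higher (log2 fold change 0.74, edgeR unadjusted p = 0.0401), while 0 were without control pool 2, control pool 3 or mutant pool 1 and 3 were without mutant pool 2. Red blood cell markers summed to 33.9 to 295 CPM in control and 185 to 379 CPM in mutant libraries, macrophage markers to 69.7 to 93.3 and 82.2 to 170 CPM, and B lymphocyte markers to 50.6 to 83.1 and 53.6 to 93.4 CPM.

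Mef2b, Phospho1 and Tubb3 were listed at 0 in every library, and each overlaps another gene on its own strand in GENCODE M21.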
